A study of Mus musculus with 6 samples.

Results

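JQ1 against DMSO was examined across all genes expressed in SmoWT-MB cells, a line of mouse medulloblastoma cells that the labels describe as deficient in Ptch. The comparison takes 4 of the 6 bead arrays in the series. The tested arrays are 2 from cells given JQ1, an inhibitor of BET bromodomain proteins, and the controls are 2 from cells given DMSO, in both cases for 6 h. The remaining 2 arrays, from cells given the Smoothened inhibitor GDC-0449 for 6 h, entered the estimate of spread and a direct contrast with JQ1. All cells are of this 1 line, the labels give no concentration, and they do not say whether the arrays come from separate cultures. The p-values therefore measure only a spread between arrays that may be technical. A probe was kept if its detection p-value was under 0.01 on at least 2 of the 6 arrays, which left 17026 probes and, with the brightest probe for each gene, 12052 genes.

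BET proteins bind acetylated lysines on histone tails and bring the elongation factor P-TEFb to promoters and enhancers, so that paused RNA polymerase II is released into the gene body. JQ1 fills the acetyl-lysine pocket of their bromodomains and displaces them from chromatin. Medulloblastoma driven by hedgehog signalling arises from granule neuron precursors of the cerebellum, cells that divide in the outer cerebellar layer after birth and then become granule neurons. Ptch1 normally restrains Smoothened, and loss of Ptch leaves the pathway on.

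With JQ1, 3419 genes rose (28.4% of those tested) and 3610 fell (30%), 58.3% in either direction, by limma with an adjusted p under 0.05. Values of a gene are log2 normalised intensities, a change is the JQ1 mean minus the DMSO mean on that scale, and a call is an adjusted p under 0.05. Most calls were modest. Of the 7029 genes called, 35.4% changed by less than 0.5 on the log2 scale and 43.6% by between 0.5 and 1, while 639 genes (5.30%) rose and 837 (6.94%) fell at least 2-fold. For 79.7% of genes both JQ1 arrays lay beyond both DMSO arrays. Counts within a gene group are read below against these percentages. Over the 247 genes named, the standard error of a change lay between 0.0862 and 0.185.

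Large falls were more numerous among dim genes than among bright ones. With genes divided into 4 equal bins by level, in the dimmest bin 187 rose and 284 fell at least 2-fold, and in the brightest bin 97 rose and 74 fell. Of all genes tested 947 were undetected with JQ1 and 335 with DMSO, so that some passed the filter only through arrays where they are high. With detection required on all 4 JQ1 and DMSO arrays, 3202 genes rose and 2917 fell. The JQ1 arrays had 15125 and 15345 probes above background, against 16466 and 16230 on the DMSO arrays, and mean raw intensities of 303 and 313, against 408 and 344. On the GDC-0449 arrays 16357 and 16154 probes were above background. Their mean raw intensities were 305 and 306, so the lower mean was not particular to JQ1. The part of overall signal in the changes was not tested. Quantile normalisation gives every array the same distribution, so a rise or fall is relative to other genes. When arrays were scaled by the median of all probes instead, the median gene changed by -0.30 and calls split into 1497 higher and 5702 lower, so that 20.8% of calls were higher, against 48.6% with quantiles. With the median of the tested probes, a scaling added after seeing the data, the median gene changed by 0.07 and 55.4% of calls were higher. These scalings differ from each other by a constant, and gene groups are therefore described relative to all genes. Of 96 gene lists 54 had a median beyond 0.1 in size, 16 of which turned sign with the scaling by all probes, and 0 did relative to the median of all genes.

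**Figure D1:**
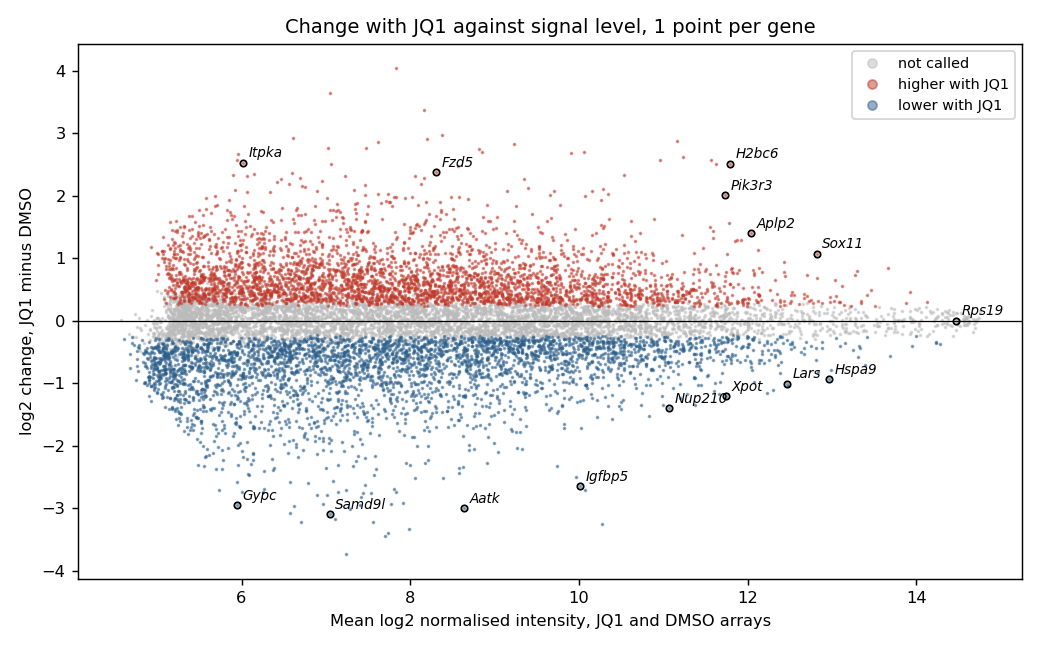
Change with JQ1 (log2, JQ1 minus DMSO, vertical axis) against mean log2 normalised intensity of the 4 arrays (horizontal axis), 1 point per gene, with genes called higher in red, called lower in blue and not called in grey. Sox11 rose by 1.08 at the bright end, Aatk fell by 3.00, and Rps19 lay at 0.00.

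The bright transcripts show the response of the best measured genes. Sox11, a transcription factor of immature neurons, had 13.36 and 13.37 on the JQ1 arrays, against 12.24 and 12.33 on the DMSO arrays, a change of 1.08 (SE 0.09, limma adjusted p = 2.34e-05, n = 2 arrays in each group), and a further probe gave 1.09. Aplp2, a relative of the amyloid precursor protein, had 12.73 and 12.74 with JQ1, against 11.25 and 11.42 with DMSO, and Prnp, the prion protein gene, had 12.73 and 12.65, against 11.62 and 11.48. The rule that chose these genes required that the groups of arrays do not overlap. Also among the 12 brightest genes that rose at least 2-fold were Ddit3 (1.30), a stress-induced transcription factor of the ER stress response, Akr7a5 (1.29), an aldehyde reductase, Gadd45g (1.27), Agrn (1.07), which organises the neuromuscular junction, and the histone genes H2bc6 (2.51), H2bc7 (2.51), H3c13 (1.57) and H3c10 (1.43). Pik3r3, a regulatory subunit of PI 3-kinase, rose 4.02-fold, to 12.66 and 12.82 with JQ1, against 10.67 and 10.79 with DMSO.

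Among the 12 brightest genes that fell at least 2-fold were several of cell growth. Ccnd1, the cyclin of G1, fell by 1.05, and its other probes gave -0.84 and -1.24. Lars, the leucyl-tRNA synthetase, fell by 1.01, Xpot, which exports tRNA from the nucleus, fell by 1.21, and Gar1, a protein of the small nucleolar particles that modify ribosomal RNA, fell by 1.17. Eif4ebp1, a repressor of cap-dependent translation, fell by 1.23 and Uhrf1, which maintains DNA methylation after replication, fell by 1.03. The others were Gtf2i (-1.10), a transcription factor, Sfxn1 (-1.35), a mitochondrial serine carrier, Loxl1 (-1.17), which cross-links elastin, Gfer (-1.07), a sulfhydryl oxidase of the mitochondrial intermembrane space, Prelid3b (-1.01) and Tmem147 (-1.03).

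Below the 10 largest rises and falls, ranks 11 to 30 in each direction are described next. Among the rises, 9 of the 20 were H2b histone genes, whose probes may not tell near-identical copies apart. The protocadherin Pcdh9 rose by 2.51 (SE 0.09), with 8.33 and 8.28 on the JQ1 arrays, against 5.83 and 5.77 on the DMSO arrays, though its other probes gave 0.85 and 1.38. Fzd5, a Wnt receptor, rose by 2.38, Zswim6 by 2.48 and Espn, an actin bundler, by 2.37. Arl4a, a small GTPase, rose by 2.31, with another probe at 0.76. Strip2 rose at least 4.25-fold, Itpka, a kinase of inositol trisphosphate, at least 4.21-fold and Pcdh19 at least 4.33-fold, since none of them was detected with DMSO. Here and below, such a bound replaces the undetected value by that of the dimmest detected probe of the same array, where that is higher.

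Among the falls of that tier, Aatk, a neuronal kinase gene, had 7.29 and 6.99 on the JQ1 arrays, against 10.11 and 10.17 on the DMSO arrays, a change of -3.00 (SE 0.11, limma adjusted p = 9.14e-07). Emp1 (-2.91), a membrane protein, Caln1 (-2.81), a calcium-binding protein, and Sult4a1 (-2.71), a brain sulfotransferase, fell by similar amounts. Sult4a1 was the brightest of these, at 8.74 and 8.69 with JQ1, against 11.41 and 11.43 with DMSO. Abcb9, a lysosomal peptide transporter, fell by 2.94, with other probes at -1.62 and -2.82. Cav1, which forms the coat of caveolae, was at least 6.32-fold lower and Gypc, a membrane glycoprotein of the red cell skeleton, at least 3.95-fold lower, because their probes were not detected with JQ1. Igfbp5, which binds insulin-like growth factors, had 8.57 and 8.81 with JQ1, against 11.46 and 11.21 with DMSO. All 3 of its probes fell by between 2.65 and 2.85.

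**Figure D2:**
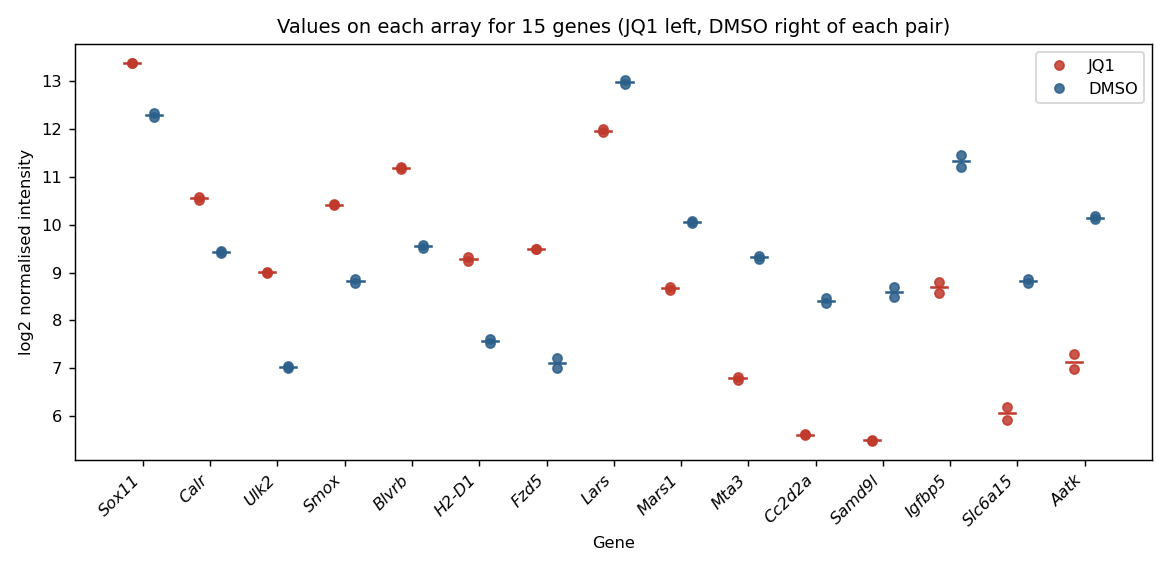
Log2 normalised intensity (vertical axis) of 15 genes on each JQ1 array (red, left of each pair) and each DMSO array (blue, right), with points for arrays and short lines for means of 2 arrays. The genes were drawn from called genes whose groups of arrays do not overlap, so the gap between groups follows from that choice. Smox, for example, lies at 10.42 and 10.41 with JQ1, against 8.79 and 8.86 with DMSO.

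The transcription machinery changed unevenly. Polr2a, the largest subunit of RNA polymerase II, rose by 1.15 (SE 0.15), to 9.30 and 9.32 with JQ1, against 8.36 and 7.97 with DMSO, and Polr2l rose by 0.53 and Polr2j by 0.48. The other 5 of the 8 polymerase II subunits tested were not called, Polr2g at 0.02 among them. Of 28 Mediator genes 8 rose and 11 fell, with Med14, the backbone subunit, at 1.25 and Med24 at -1.03. Among general factors 6 of 25 rose and 3 fell, led by Taf13 (1.34), a TFIID subunit, and Gtf2a1 (0.97), the large TFIIA subunit. Of 29 genes for pausing and elongation 12 rose and 8 fell, with the PAF complex genes Ctr9 (0.82) and Rtf1 (0.69) and the kinase Cdk13 (0.69) higher and Ssrp1 (-1.30), a subunit of the histone chaperone FACT, lower. Polr1b, a core subunit of polymerase I, fell by 1.32, and in all 4 of the 28 genes of polymerases I and III rose and 9 fell.

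Genes fell more often than they rose in 5 of the 8 chromatin lists. Zmynd8, a reader of histone marks that itself carries a bromodomain, had 8.62 and 8.54 on the JQ1 arrays, against 10.82 and 10.99 on the DMSO arrays, a 5.01-fold fall (SE 0.10 on the log2 scale, limma adjusted p = 1.08e-06). Mta3, a subunit of the NuRD deacetylase complex, fell 5.72-fold, to 6.77 and 6.83, against 9.35 and 9.28 with DMSO, and Mta1 fell by 0.97. The deacetylase family as a whole had 6 genes higher and 8 lower of 27. Sirt5, a mitochondrial deacylase, was at least 2.56-fold lower, while Sirt7 rose by 0.96 and Sin3b by 0.84. Of 37 histone methyltransferases 7 rose and 16 fell, the largest fall being Smyd2 (-1.70), and of 37 chromatin remodelling genes 6 rose and 15 fell, with Smarcd3 at -1.39. Among polycomb genes, which number 27, Rybp rose by 1.06, Pcgf1 fell by 0.79, Bmi1 fell by 0.59 and Ezh2, the methyltransferase, was at 0.13 and not called. Kat2a, an acetyltransferase, fell by 1.15.

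Of 12 replacement histone genes, which are also expressed outside S phase, 5 rose and 2 fell. H1f0, a linker histone of resting cells, had 9.01 and 9.28 with JQ1, against 7.37 and 7.10 with DMSO, a 3.75-fold rise. H1f10 rose by 1.23, H3f3b by 0.80 and H2ax by 0.56, while Macroh2a2 fell by 1.44 and Cenpa, the centromeric histone, fell by 0.53. Among histone chaperones the direction was the other, with 1 of 19 higher and 11 lower, including Hira (-0.82) and Anp32a (-0.91, though -0.09 and not called over the mean of its probes). In the DNA methylation group Tet1, which oxidises methylcytosine, fell by 1.38, and the stress genes Gadd45b, Gadd45a and Gadd45g rose by 2.19, 1.71 and 1.27.

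The promoter of H2ac18, one of the largest rises, is printed from RefSeq (GRCm38.p6, chr3:96245247-96245546, plus strand), 5′ to 3′, as 300 bases that span the start, with matches to CCAAT or its reverse complement in capitals. CCAAT is the core of the site bound by the factor NF-Y.
H2ac18: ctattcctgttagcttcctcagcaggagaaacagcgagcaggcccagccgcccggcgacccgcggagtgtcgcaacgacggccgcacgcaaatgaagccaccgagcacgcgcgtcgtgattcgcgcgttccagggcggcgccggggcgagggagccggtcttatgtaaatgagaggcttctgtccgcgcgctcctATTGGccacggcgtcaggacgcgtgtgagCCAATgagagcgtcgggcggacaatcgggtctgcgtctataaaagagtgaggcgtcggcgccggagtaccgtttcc
Of 44 replication-dependent histone genes with a RefSeq promoter, 84.1% held CCAAT and 56.8% held TATAAA, the sequence bound by the TATA-binding protein. Among promoters of tested genes these shares were 39.8% and 6.75%, and among all 27025 promoters 37.9% and 14.2%. H2ac18 itself rose by 2.91 (SE 0.10).

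Genes that prepare transfer RNA were mostly lower. Of 36 aminoacyl-tRNA synthetase genes, whose enzymes load amino acids on tRNA, 22 fell and 5 rose, with a median change of -0.48, where the median of all genes was 0.00. With GDC-0449 15 of the 36 fell and 0 rose, where 9.60% of all genes fell and 8.64% rose relative to the same DMSO arrays, and 20 differed directly between the compounds, where 54.5% of all genes did. Mars1, the cytosolic methionyl enzyme, had 8.64 and 8.71 with JQ1, against 10.04 and 10.07 with DMSO, a 2.61-fold fall (SE 0.09). Tars2 (-1.27) and Fars2 (-1.23), both mitochondrial, and Eef1e1 (-1.10), a scaffold of the synthetase complex, also fell at least 2-fold. Mars2, the mitochondrial methionyl enzyme, rose by 0.88, and Kars stood at 0.00. Of 49 genes that modify tRNA and ribosomal RNA 28 fell and 9 rose (median -0.34), led by Elp6 (-1.42), Nsun2 (-1.42), Trmt61a (-1.34) and Pus3 (-1.31).

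Of 81 ribosome biogenesis genes 49 fell and 3 rose, with a median of -0.39. With GDC-0449 37 of them fell and 1 rose, and 29 differed between the compounds. Pes1, which acts in large subunit assembly, had 8.18 and 8.25 on the JQ1 arrays, against 9.63 and 9.51 on the DMSO arrays, and Ltv1, which acts on the small subunit, fell by 1.04. Of 72 mitochondrial ribosome genes 37 fell and 5 rose, with Mrpl36 at -1.40 and Mrpl49 at 0.91. Among the proteins of the ribosome, 2 of 59 cytosolic ribosomal protein genes rose and 3 fell, which is 8.48% called where all genes had 58.3%. Rps29, for example, had 14.46 and 14.51 with JQ1 and again 14.46 and 14.51 with DMSO. Rps29 lies near the highest gene level of 14.75, and quantile normalisation gives equal ranks equal values. Its equal values therefore do not show an unchanged amount of RNA. The count of called ribosomal protein genes depends on the scaling. Under the added scaling by tested probes 42 of the 59 were called higher and 2 lower, and relative to all genes their median was 0.27 with median scaling and -0.02 with quantiles.

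The promoters of the assembly factors hold CACGTG, the E-box bound by Myc and related factors, more often than those of all tested genes. It occurs in 23.9% of the 67 ribosome biogenesis promoters matched, against 10.3% over all 7288 tested genes with a name and a promoter. Those of Pes1 (chr11:3963725-3964024, plus strand) and Ltv1 (chr10:13193088-13193387, minus strand), the members with the largest falls among those with the motif, are shown with CACGTG in capitals.
Pes1: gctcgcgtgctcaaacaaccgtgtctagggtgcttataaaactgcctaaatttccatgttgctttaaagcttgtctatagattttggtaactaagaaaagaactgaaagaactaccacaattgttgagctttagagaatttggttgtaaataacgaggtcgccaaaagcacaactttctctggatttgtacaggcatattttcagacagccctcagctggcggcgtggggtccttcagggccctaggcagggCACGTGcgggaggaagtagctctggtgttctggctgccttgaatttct
Ltv1: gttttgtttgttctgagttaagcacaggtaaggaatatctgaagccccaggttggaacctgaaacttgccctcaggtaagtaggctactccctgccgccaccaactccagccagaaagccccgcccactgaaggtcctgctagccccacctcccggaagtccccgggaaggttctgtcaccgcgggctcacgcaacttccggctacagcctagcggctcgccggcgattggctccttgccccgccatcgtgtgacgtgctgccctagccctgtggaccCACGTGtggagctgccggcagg
A match describes these letters in this window and does not show binding. CACGTG was not particular to this list. It was present in 36.4% of 11 proton pump promoters, 30.4% of 23 polycomb promoters and 20.4% of 49 autophagy and lysosome promoters.

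Of 46 core spliceosome genes 17 fell and 3 rose (median -0.18), with Dhx38 and Dhx15, helicases of the splicing cycle, both at -0.73. Among 48 SR, hnRNP and related splicing regulators 11 rose and 10 fell, and Hnrnpd was at least 1.73-fold lower while Tra2a, a bright member, rose by 0.78. Of 60 nuclear pore and transport genes 27 fell and 4 rose. Nup210, a membrane nucleoporin, had 10.32 and 10.41 with JQ1, against 11.74 and 11.79 with DMSO. In RNA decay, where 10 of 49 rose and 16 fell, the antiproliferative genes Btg1 (1.38) and Tob1 (1.18) rose, and the exosome genes Exosc10 (-0.90) and Exosc7 (-0.83) fell.

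**Figure D3:**
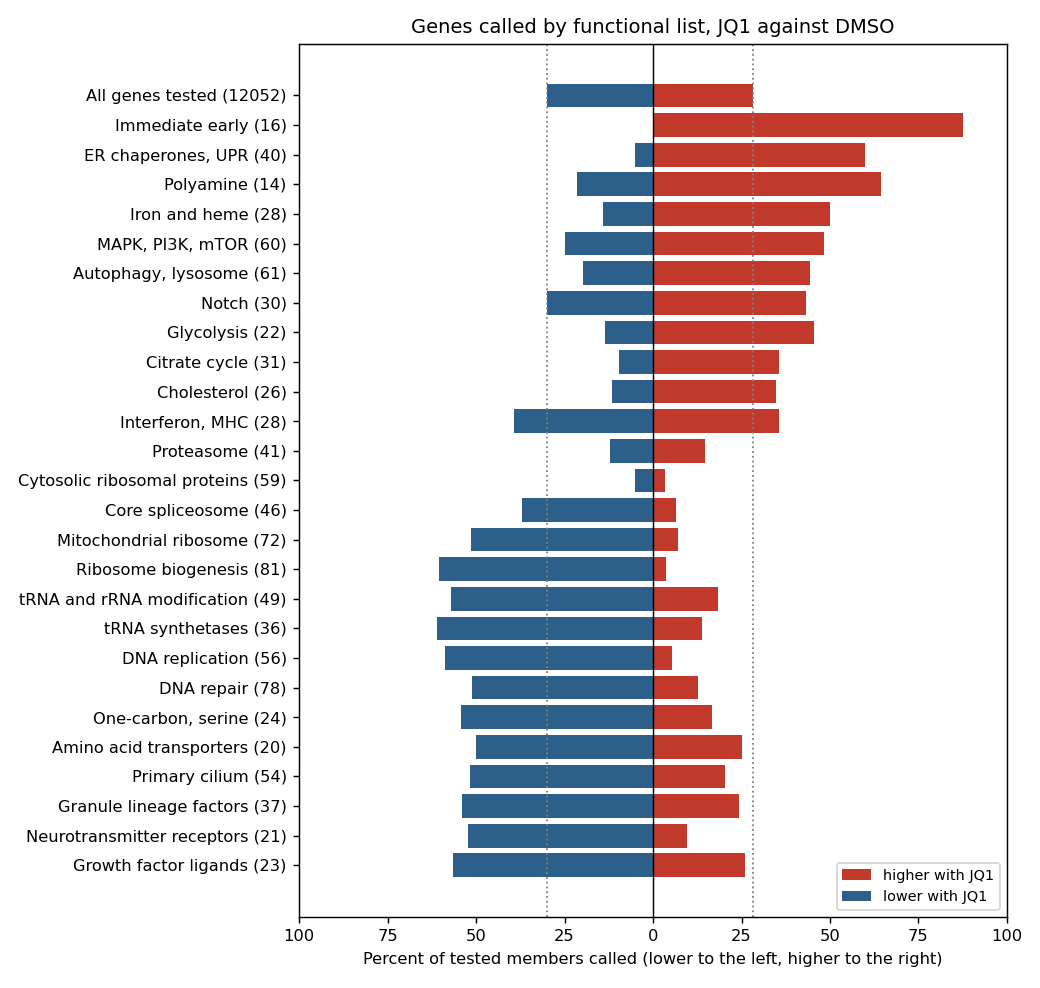
Percent of tested members of each functional list (number tested in brackets) called higher (red, to the right) or lower (blue, to the left) with JQ1, with dotted lines at the values of all genes, 28.4% and 30%. ER chaperone genes reach 60% higher and ribosome biogenesis genes 60.5% lower.

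Genes for protein folding in the endoplasmic reticulum (ER) were mostly higher. Of 40 genes for ER chaperones and the unfolded protein response 24 rose and 2 fell, with a median of 0.42. Calr, a chaperone of glycoproteins, had 10.52 and 10.58 on the JQ1 arrays, against 9.46 and 9.40 on the DMSO arrays, a 2.17-fold rise (SE 0.10 on the log2 scale, limma adjusted p = 3.60e-05). Pdia4, a disulfide isomerase, had 11.13 and 11.12, against 10.10 and 9.96 with DMSO. Creb3l2, a membrane-bound transcription factor of the secretory pathway, rose by 1.69 and Ero1b, an oxidase that renews disulfide bonds, by 1.11. The members that fell were Atf6b (-0.58) and Pdia5 (-0.44). With GDC-0449 6 of the 40 rose and 2 fell, and 25 of them differed in the direct contrast of JQ1 with GDC-0449.

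CCAAT, which also belongs to the ER stress response element, was present in 66.7% of the 36 ER chaperone promoters matched, against 39.8% of promoters of tested genes. Those of Creb3l2 (chr6:37442099-37442398, minus strand) and Calr (chr8:84846882-84847181, minus strand) each hold it 2 times, in capitals here on either strand.
Creb3l2: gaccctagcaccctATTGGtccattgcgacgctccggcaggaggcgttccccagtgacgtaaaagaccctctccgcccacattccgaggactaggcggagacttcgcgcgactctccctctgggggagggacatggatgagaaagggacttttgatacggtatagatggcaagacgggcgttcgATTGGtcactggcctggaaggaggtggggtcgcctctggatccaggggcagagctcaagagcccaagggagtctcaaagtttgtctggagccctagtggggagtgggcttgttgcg
Calr: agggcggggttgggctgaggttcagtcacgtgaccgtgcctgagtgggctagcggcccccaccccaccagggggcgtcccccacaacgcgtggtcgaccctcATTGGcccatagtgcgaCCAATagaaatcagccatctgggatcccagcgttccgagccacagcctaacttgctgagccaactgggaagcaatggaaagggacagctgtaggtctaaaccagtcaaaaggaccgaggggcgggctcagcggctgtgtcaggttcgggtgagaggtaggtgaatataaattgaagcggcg
Creb3l2 had 7.48 and 7.55 with JQ1, against 6.03 and 5.63 with DMSO.

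In the stress program of Atf4, which raises amino acid uptake and synthesis, 9 of 37 genes rose and 18 fell. With GDC-0449 4 rose and 23 fell. Ddit3, Ddit4 (1.32), an inhibitor of mTOR signalling, and Sesn3 (1.80) rose, while Nupr1 (-2.43) and the glycine transporter Slc6a9 (-1.72) fell. Amino acid transporters overall had 5 genes higher and 10 lower of 20 tested, with 3 undetected with JQ1, and a median of -0.40 that became 0.0021 with no filter on dim probes. Slc6a15, a neuronal transporter of branched amino acids, had 5.93 and 6.20 with JQ1, against 8.86 and 8.78 with DMSO, a 6.75-fold fall, with another probe at -1.22. Of 70 heat shock and J-domain chaperone genes of several compartments 15 rose and 19 fell. Hspa1a, the inducible chaperone, was at least 1.44-fold higher, and the mitochondrial chaperone Hspa9 fell by 0.94, to 12.50 and 12.51 with JQ1, against 13.51 and 13.37 with DMSO.

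Autophagy and lysosome genes rose more often than they fell, 27 against 12 of 61, with a median of 0.24 (0.25 relative to all genes with median scaling, where the counts were 12 against 21). The 4 largest rises were of genes that act in making autophagosomes. Ulk2, an initiating kinase, had 9.01 and 9.0 on the JQ1 arrays, against 7.06 and 7.01 on the DMSO arrays, a 3.93-fold rise (SE 0.13 on the log2 scale). Ulk1, its relative, rose by 1.21, Wipi1, which binds the forming membrane, by 1.36, and Map1lc3b, the conjugated membrane marker, by 1.26. The 4 largest falls were Cln3 (-2.19), a lysosomal membrane protein, and the lysosomal hydrolases Gusb (-1.45), Gaa (-1.14) and Hexa (-1.08). Of 16 genes for the proton pump that acidifies lysosomes 7 rose and 2 fell, Atp6v0a1 (0.74) and Atp6v1g2 (-1.35) being the extremes. With median scaling 2 of the 16 rose and 4 fell. In the proteasome, by comparison, 6 of 41 genes rose and 5 fell, and Psmb10, an immunoproteasome subunit, stood alone at -1.82. Of 164 ubiquitin ligase genes 48 rose (29.3%, near the 28.4% of all genes) and 32 fell, Trim36 (1.98) and Rnf19b (1.79) being among the largest rises, and with median scaling 20 rose and 72 fell.

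In polyamine metabolism 9 of 14 genes rose and 3 fell. Smox, which oxidises spermine, had 10.42 and 10.41 with JQ1, against 8.79 and 8.86 with DMSO (change 1.59, SE 0.09), and Oaz2, an antizyme that limits polyamine synthesis and uptake, rose by 1.60. Srm, which makes spermidine, fell by 1.37, and Odc1, the first enzyme, stood at 0.28, with a limma adjusted p of 0.0489. The Odc1 call was lost without JQ1 replicate 1 (0.32), JQ1 replicate 2 (0.22) or DMSO replicate 2 (0.18). In iron and heme metabolism 14 of 28 genes rose and 4 fell, and with median scaling 7 rose and 7 fell. Blvrb, a biliverdin reductase, had 11.21 and 11.15 with JQ1, against 9.58 and 9.51 with DMSO, Uros, a heme synthesis enzyme, rose by 1.67, and Ftl1, the ferritin light chain, rose by 1.16.

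One-carbon metabolism, which feeds nucleotide synthesis, was lower. Of 24 genes 13 fell and 4 rose, with Shmt1 at 8.42 and 8.42 on the JQ1 arrays, against 10.14 and 10.25 on the DMSO arrays, and the folate carrier Slc19a1 at -1.53. Of 43 purine and pyrimidine genes 20 fell and 7 rose. The falls included Dut (-1.36, with another probe at -0.51), which removes dUTP. Glycolysis genes rose in 10 of 22 cases and fell in 3, with Pdk1 (1.09), Pfkp (1.03) and Pfkl (0.96) highest, while Pgk1 (0.03) and Pkm (-0.04) were not called. In the citrate cycle 11 of 31 rose and 3 fell, Idh1 (1.08) leading. Cholesterol synthesis genes rose in 9 of 26 cases and fell in 3. With median scaling glycolysis genes had 5 higher and 5 lower, citrate cycle genes 5 and 10, and cholesterol genes 2 and 9. Of 67 subunits of oxidative phosphorylation 10 rose and 16 fell, and with scaling by tested probes 19 rose and 8 fell. Acsl6, which activates fatty acids in brain, was at least 3.47-fold lower, with other probes at -1.31 and at -0.24, the latter not called.

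Genes that copy and mend DNA were mostly lower. Of 56 DNA replication genes 33 fell and 3 rose (median -0.38). With GDC-0449 27 fell and 1 rose, and 23 differed between the compounds. Mcm3, a subunit of the replicative helicase, had 8.45 and 8.02 with JQ1, against 9.78 and 9.71 with DMSO, a 2.85-fold fall (SE 0.15), and Rnaseh2b and Pold3 fell by 1.23 and 1.00. TTTCCCGC, a site form bound by E2F factors, lies in 20.0% of the 45 replication gene promoters matched and in 2.26% of promoters of tested genes. The promoter of Mcm3 (chr1:20820263-20820562, minus strand) holds it on the other strand, in capitals.
Mcm3: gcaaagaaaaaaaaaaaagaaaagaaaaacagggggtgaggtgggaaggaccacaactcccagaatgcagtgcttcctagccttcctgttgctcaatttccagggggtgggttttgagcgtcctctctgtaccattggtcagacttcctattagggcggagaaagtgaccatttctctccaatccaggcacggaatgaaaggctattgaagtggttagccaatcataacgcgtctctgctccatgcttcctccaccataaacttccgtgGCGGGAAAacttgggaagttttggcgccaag
Of 78 DNA repair genes 40 fell and 10 rose. The falls included Fancd2 (-1.33), which acts on interstrand crosslinks. The rises included Xpa (1.07), Ercc5 (0.90) and Xpc (0.58), which act in nucleotide excision repair, the Xpc call being lost with median scaling (0.22). Mitosis genes fell in 27 of 71 cases and rose in 9, with Bub1b, a checkpoint kinase, at -0.89 and Plk2 and Plk3, stress-responsive kinases, at 1.09 and 0.99.

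Regulators of cell death moved in both directions. Bcl2l11, which encodes the killer protein Bim, had 9.19 and 9.20 on the JQ1 arrays, against 7.67 and 7.79 on the DMSO arrays, a 2.76-fold rise. Casp6 rose by 1.15 and Apaf1, the core of the apoptosome, by 0.78, while Bok fell by 1.72. Mcl1 was at 0.01 and not called. Over the family 10 of 33 rose (30.3%) and 12 fell (36.4%), near the 28.4% and 30% of all genes.

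Immediate early genes, which respond to signals without new protein synthesis, rose in 14 of 16 cases and fell in 0, with a median of 0.68. Signalling genes of the kinase cascades rose more than they fell, 29 against 15 of 60, with a median of 0.23. With median scaling the counts were 12 against 23, and the median relative to all genes was 0.19. Besides Pik3r3, Pik3r1, the main regulatory subunit of PI 3-kinase, rose by 1.88, Sgk1, a kinase downstream of it, by 1.60, and Rras2 by 1.21. Map2k6, which activates p38 kinases, fell by 1.56. Errfi1, a feedback inhibitor of EGF receptors, rose by 1.84 and Dusp4, a MAP kinase phosphatase, by 1.01, with another Dusp4 probe at 0.50. Of 27 receptor tyrosine kinase genes 8 rose and 13 fell. Of these 27, 6 were undetected with JQ1 and 2 with DMSO, so that some passed the filter through arrays where they are high. Fgfr2 rose by 1.13, and Pdgfra, the platelet-derived growth factor receptor, was at least 2.72-fold lower. Growth factor and binding protein genes fell in 13 of 23 cases and rose in 6, with Vegfb at -1.43 and Igfbp3 at 0.69. Here 4 of the 23 were undetected with JQ1 and 0 with DMSO, so the same limit holds.

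Developmental pathways showed mixed lists. In the Notch pathway 13 of 30 genes rose and 9 fell, and with median scaling 5 rose and 11 fell. Bcl6, a repressor that acts with Notch in neuron formation, had 9.02 and 9.13 with JQ1, against 7.32 and 7.41 with DMSO, Notch1 rose by 0.96, and Nrarp, a feedback inhibitor and target of the pathway, was at least 2.56-fold higher. Mfng, which adds sugars to Notch receptors, fell by 2.70, with another probe at -1.32. Among 35 Wnt genes 11 rose and 10 fell. Receptors Fzd5 and Fzd3 (1.46) rose, while the secreted antagonists Wif1 (-1.57) and Sfrp2 (-1.39) and the ligand Wnt5a (-1.29) fell. BMP and TGF-beta genes fell in 14 of 30 cases and rose in 5, with Chrd at -1.22 and Tgfbr2 at -1.21. Frmd6, an upstream protein of Hippo signalling, rose 4.31-fold, whereas Yap1 (-0.06) was not called.

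Of 28 interferon and antigen presentation genes 10 rose and 11 fell. H2-D1, a class I MHC heavy chain, had 9.32 and 9.23 on the JQ1 arrays, against 7.53 and 7.62 on the DMSO arrays, a 3.26-fold rise (SE 0.09 on the log2 scale). B2m, its partner chain, rose by 1.05, H2-K1 was at least 1.69-fold higher and Stat2 rose by 1.41. Samd9l, an interferon-induced gene, had 5.49 and 5.51, against 8.69 and 8.50 with DMSO, and Ifit2 and Rsad2, antiviral effectors, were at least 2.31-fold and 2.38-fold lower.

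Of 37 transcription factors of the granule lineage and its neighbours 20 fell and 9 rose, with a median of -0.35. Nfic, a nuclear factor I gene, had 6.12 and 6.50 with JQ1, against 8.28 and 8.34 with DMSO, and Nfia, its relative in granule neuron maturation, had 8.36 and 8.04, against 9.73 and 9.70. Ebf2 (0.88), Lhx1 (0.71) and Zic2 (0.63) rose, the Zic2 call being lost without DMSO replicate 2 (0.44). In the direct contrast with GDC-0449 26 of the 37 differed, and with GDC-0449 12 rose and 2 fell against the same DMSO arrays. Of 14 markers of granule precursors 10 could be tested, of which 3 rose and 7 fell, and Atoh1, Neurod1, Nhlh1 and Pax6 were not detected on the 4 arrays. The line thus expressed part of the marker set.

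Structural genes of young neurons were split, with 13 of 45 higher and 19 lower. Among the 45, 6 were undetected with JQ1 and 2 with DMSO, so that some passed the filter through arrays where they are high. Dcx, a microtubule protein of migrating neurons, had 7.52 and 7.23 on the JQ1 arrays, against 8.93 and 9.02 on the DMSO arrays, and fell 3.04-fold. Nsg2 (-1.76), an endosomal protein, and Astn1 (-1.46), which guides migration on glia, also fell, while Ina, a neurofilament relative, rose by 1.43. Of 21 neurotransmitter receptor genes tested, out of 115 in the list, 11 fell and 2 rose, including Gria2, an AMPA receptor subunit, at -1.47. Of these 21, 7 were undetected with JQ1 and 0 with DMSO, so that some passed the filter through the arrays where they are high, and the median of -0.57 became 0.0035 with no filter. Synaptic vesicle and scaffold genes rose in 18 of 45 cases and fell in 12, with Pclo (1.36) and Syn1 (1.15) among the rises. With median scaling 12 of these genes rose and 16 fell. Orai1, the plasma membrane calcium channel, rose 4.50-fold, and Kcnk1, a potassium channel, fell by 1.85.

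Markers of other cell types give limits on what the cells were. Oligodendrocyte lineage markers were lower, 4 of 5 tested, with Mbp, a myelin protein, at 6.35 and 6.25 with JQ1, against 8.59 and 8.33 with DMSO. Their summed linear signal was 241 and 231 with JQ1, against 683 and 635 with DMSO, and Olig1, Olig2, Sox10, Mag, Mobp and Mog were not detected on the 4 arrays. Of 5 tested, 3 were undetected with JQ1 and 0 with DMSO, so that some passed the filter through the arrays where they are high. In bulk RNA, fewer cells of a type and less RNA per cell cannot be told apart. Of the microglia and endothelial markers 10 of 12 and 8 of 10 were not detected on these arrays. Each of these 2 types had 2 tested markers, of which 1 rose at least 2-fold and 1 was not called. Fibroblast markers, 4 of 11 tested with 1 higher and 2 lower, summed to 3337 and 3081 with JQ1, against 2340 and 2523 with DMSO. Astrocyte or Bergmann glia markers, 5 of 10 tested with 1 higher and 3 lower, summed to 9331 and 9303 with JQ1, against 8220 and 9255 with DMSO. Among them Sox9 rose by 0.78 and Gja1 and Slc1a3 fell by 1.42 and 0.86. The markers Gfap, Aqp4, Aldh1l1, S100b and Fabp7 were not detected on the 4 arrays. The part of these markers in the changes was not tested.

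The primary cilium, the organelle through which hedgehog signals pass, had lower transcripts. Of 54 ciliary and intraflagellar transport genes 28 fell and 11 rose, 72.2% called, with a median of -0.30. Cc2d2a, a protein of the ciliary transition zone, had 5.62 and 5.62 on the JQ1 arrays, against 8.46 and 8.36 on the DMSO arrays, a 6.93-fold fall (SE 0.10 on the log2 scale, limma adjusted p = 7.45e-07). Cep41 fell by 1.60, Bbs12, of the BBS chaperonin complex, by 1.52 and Evc2, which relays signals from Smoothened, by 1.21. Kif3a, a motor of intraflagellar transport, rose by 0.66. With GDC-0449 5 of the 54 rose and 2 fell, and 43 differed between the compounds directly, Cc2d2a by -2.85 and Cep41 by -1.66. CCAAT was present in 61.7% of the 47 matched promoters, although most of these genes fell. That of Cep41 (chr6:30693700-30693999, minus strand), with matches in capitals, is shown for comparison with the ER genes.
Cep41: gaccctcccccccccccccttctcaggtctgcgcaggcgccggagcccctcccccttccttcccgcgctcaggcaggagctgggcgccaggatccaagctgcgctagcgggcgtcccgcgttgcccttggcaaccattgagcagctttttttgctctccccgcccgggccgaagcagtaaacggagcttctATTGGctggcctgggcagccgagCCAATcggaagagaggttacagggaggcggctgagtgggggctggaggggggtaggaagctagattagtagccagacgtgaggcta

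Adhesion and the cytoskeleton held large changes in both directions. Of 28 cadherin and protocadherin genes tested, out of 95 in the list, 12 rose and 11 fell, 82.1% called. Of these 28, 10 were undetected with JQ1 and 1 with DMSO, so that some passed the filter through arrays where they are high. Pcdh9, Pcdh19 and Pcdh17 (1.56) rose, while the classical cadherins Cdh20, Cdh15 and Cdh7 were at least 4.06-fold, 2.25-fold and 2.10-fold lower. Cldn10, a tight junction protein, rose by 2.07. In the matrix and integrin group 22 of 65 rose and 27 fell, with Mmp17 2.83-fold higher and Adamts19, a protease, at -1.87. Of these 65, 10 were undetected with JQ1 and 4 with DMSO, so the limit given for the cadherins holds here too. Myo6, a motor that walks towards the minus end of actin, had 10.43 and 10.55 with JQ1, against 8.15 and 8.30 with DMSO, and Pdlim7, an adaptor on actin filaments, rose by 2.19. Of 68 tubulin, kinesin and dynein genes 20 rose and 10 fell, and Kif1a and Kif1b, axonal transport motors, rose by 1.22 and 1.07. With median scaling 9 of the 68 rose and 29 fell.

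Transcription factor families without a common direction still held strong responders. The 184 Zfp zinc finger genes had 36 higher and 48 lower, 45.7% called, with Zfp703 at 1.67 and Zfp532 at -2.35. Klf5 rose by 1.48 and Sp3 by 1.21, Elf1 by 1.88 and Ets1 by 1.26, while Elk3 fell by 1.91 and Usf2, a factor that binds E-boxes, by 1.31. Sox5 fell by 1.54. In the circadian clock 5 of 16 rose and 8 fell. Arntl, the activator of the clock, had 7.40 and 7.68 on the JQ1 arrays, against 6.39 and 6.18 on the DMSO arrays, whereas its targets Dbp (-1.38) and Per2 (-0.89) fell and Clock (0.10) was not called.

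The most precise changes of less than 1.5-fold, chosen for their p-values, are given as examples of small shifts. Rnf6, a ubiquitin ligase, rose by 0.58, with 10.85 and 10.91 with JQ1, against 10.27 and 10.33 with DMSO (SE 0.09, limma adjusted p = 0.00062). Id2, a target of BMP signals, fell by 0.58, with 7.25 and 7.18, against 7.78 and 7.83 with DMSO. Acd, a telomere protein, rose by 0.57 and Mtrex, an RNA helicase of the nuclear exosome, fell by 0.58. Among reference genes Ppia and Tubb5 were each at -0.01, but Polr2a, B2m and Gusb, which are also used to normalise expression, changed at least 2-fold. The 15 housekeeping genes had a median of 0.05, and of 0.31 relative to all genes with median scaling.

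**Figure D4:**
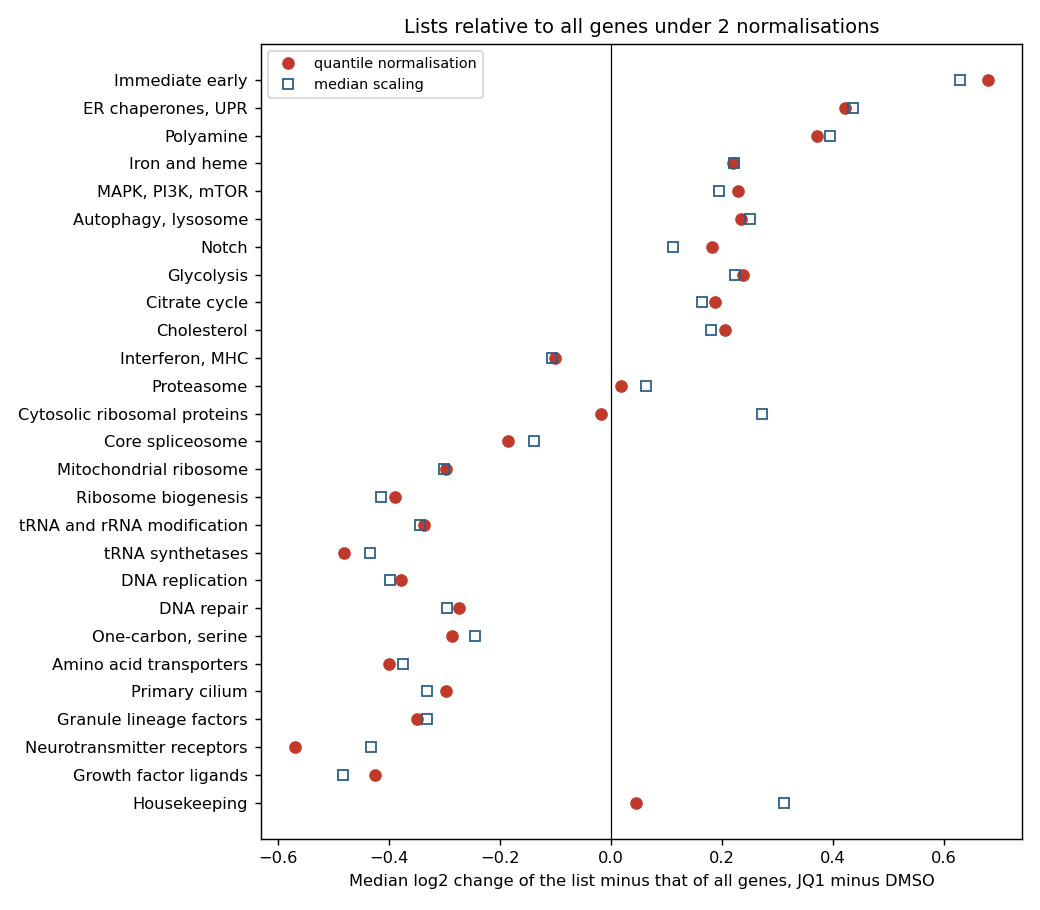
Median log2 change of each functional list minus that of all genes (horizontal axis, JQ1 minus DMSO) with quantile normalisation (red circles) and median scaling (open blue squares). Of the lists drawn, cytosolic ribosomal proteins (0.27 with median scaling) and housekeeping genes (0.31) differ most between the normalisations.

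Several probes of a gene mostly gave the same answer. Among 3514 genes with several tested probes, 650 had every probe called higher and 694 every probe called lower. Of the 3015 further probes of called genes 90.7% had the same sign as the brightest probe, 68.8% were called the same way and 2.65% the opposite way. In 73 genes probes were called in opposite directions. Vrk1, a kinase of the nuclear envelope cycle, had probes at 0.76, -0.39 and -1.46, Tsr1 at 0.82 and -0.75, and Rbm33 at 0.68, -0.86 and -0.47. For Ip6k2 the brightest probe gave -0.89 and 3 dimmer ones gave 0.62 to 0.98. A gene-level change for these 4 is not defined by the arrays, and the files used here do not place the probes on transcripts.

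Shares of promoters with a motif were also counted over all genes, with no test of their differences. Of named genes that rose 81.3% had a promoter in the RefSeq table, and of those that fell 81.1%. GGGCGG, the core of the Sp1 site, was present in 74.4% of the 2037 promoters of genes that rose, 62.5% of the 2305 of genes that fell and 68.2% of the 2946 not called. CCAAT was present in 44.8%, 34.9% and 40.1% of the same sets, and in 51.3% of those that rose at least 2-fold. Without the replication-dependent histone genes this last share was 49.3%. TATAAA was present in 12.3% of promoters of genes that rose at least 2-fold and in 8.82% without those histone genes. CACGTG was present in 9.13% of promoters of genes that rose and 11.4% of those that fell. Promoters of genes that rose had a median of 23 CG dinucleotides in 300 bases, those of genes that fell 20, and those not called 22. Both strands were searched, and motifs may overlap. TGACGTCA, the cAMP response element bound by CREB, was present in 3.63% of promoters of genes that rose and 2.99% of those that fell, and TTTGGCGC, a further E2F site form, in 0.933% and 1.26%.

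**Figure D5:**
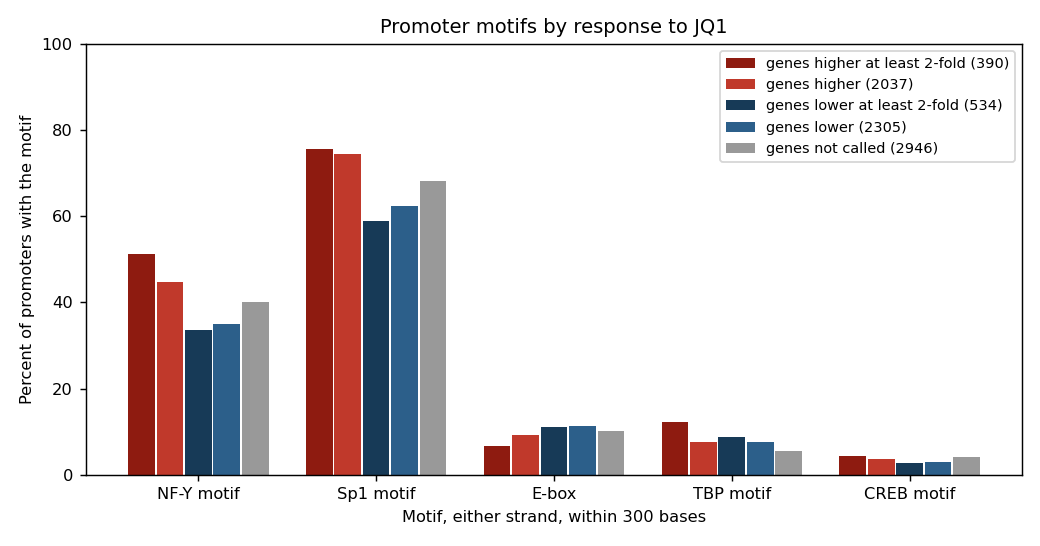
Percent of promoters (vertical axis) that hold the core motifs of NF-Y, Sp1, the E-box, the TATA-binding protein and CREB (horizontal axis), for genes higher and lower with JQ1, in all and at least 2-fold, and for genes not called, with the number of promoters in brackets. The NF-Y motif is present in 51.3% of promoters of genes that rose at least 2-fold, against 33.7% of those that fell at least 2-fold and 40.1% of those not called.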

How the data were processed

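Total RNA of SmoWT-MB cells was measured on 6 Illumina mouse bead arrays. The deposited table, made by the authors with GenomeStudio 1.9.0 per the submitters' processing notes, holds a mean bead intensity for each probe, not normalised per the file headers. It also holds, as deposited by the authors, a detection p-value for each probe and array. Intensities were corrected for background from the detection p-values (neqc, offset 16), quantile-normalised and put on a log2 scale, using limma (3.58.1) under R (4.3.3). A fit over all 6 arrays (lmFit, eBayes, Benjamini-Hochberg adjustment, 3 residual and 5.38 prior degrees of freedom) gave JQ1 minus DMSO and JQ1 minus GDC-0449. The authors' deposited series matrix intensities served as an alternative. The brightest tested probe stood for each gene, and symbols were updated through RefSeq for GRCm38.p6 (27740 probes kept a current symbol, 6111 were given one, 9504 had no match and 1926 kept an older one). Arrays carry no read depth, and their number limits the precision.

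Named genes are the largest rises and falls and the nearest to 0 of each list, ranks 11 to 30 in each direction over all genes, the 12 brightest changed at least 2-fold, the most precise small changes, and genes with opposite probes. All but the genes nearest to 0 had arrays that did not overlap. H2ac18 was named besides, after its values were seen. The lists and rule were chosen with earlier results of these data known. On simulated data of 12052 genes the fit recovered 36% of changes of 0.5, 90% of 1 and 98% of 2 (log2), with 4 false calls among 11852 unchanged genes. Only 100, 50 and 50 genes were changed by these sizes, where 58.3% of genes were called in the data. The adjusted p depends on that share, so these rates do not carry over to the real fit. Alternatives varied background, normalisation, offset, filter, probe, symbols, arrays in the fit and a replicate block, and scaling by tested probes was chosen after seeing the data. A few genes that the rule names are not reported here.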

Additional observations from a re-analysis of the deposited data

How the results depend on the processing

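Scaling by the median of all probes in place of quantiles gave 1497 genes higher and 5702 lower with JQ1, against 3419 and 3610, and 72.6% of calls were still made, with 0 in the opposite direction. The counts stayed within 1.5 times the reported ones under the other settings. Leaving out 1 JQ1 or DMSO array gave 2840 to 2949 genes higher, 3065 to 3159 lower, and 5533 to 6493 that differed between JQ1 and GDC-0449, where the lone array left in a group is assumed to vary like the others. Deviations of arrays with the same replicate number in the titles correlated weakly, at 0.0066 between JQ1 and DMSO arrays. The value was 0.081 between JQ1 and GDC-0449 arrays and -0.016 between GDC-0449 and DMSO arrays. Whether arrays with the same number were prepared together cannot be told from this. A replicate block gave 3425 higher, 3603 lower and 6566 differing. The fit on JQ1 and DMSO arrays alone gives no contrast with GDC-0449. Of the 247 named genes 13 lost a call or turned direction under some setting. Averaging the probes of a gene turned Ip6k2 to 0.34, Rbm33 to -0.22 and Vrk1 to -0.36, which are genes with opposed probes, and Tsr1 and Anp32a lost their calls. Scaling by tested probes turned Ppia to 0.41, Rps19 to 0.42, Rps29 to 0.40 and Tubb5 to 0.38. Scaling by the median of all probes ended the calls of Odc1, Polr2j, Xpc and Zic2 and made one for Yap1 (-0.42). With no filter on dim probes, the list medians of neurotransmitter receptors (0.0035), amino acid transporters (0.0021) and BMP genes (0.0074, against -0.15) turned sign, and that of clock genes was 0.046, against -0.25, when detection on all 4 arrays was required.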
